A study of Mus musculus with 4 samples.

Results

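miR-9 and miR-124 are microRNAs (miRNAs), small RNAs that pair with messenger RNAs and lower their translation and stability. The 4 mature miRNAs described here, miR-9-5p, miR-9-3p, miR-124-3p and miR-124-5p, were taken by name from the 942 mature mouse miRNAs counted in each library. They are both arms of each of these families, taken without the relatives that carry a further letter, and the rule that picks them uses names and no measured level. A precursor hairpin yields a mature strand from its 5′ side (5p) and one from its 3′ side (3p), and usually 1 arm is kept in far larger amounts.

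The libraries came from the brain cortex of 4 mice of the B6C3 strain at 9 months of age, 1 library per mouse. WT1 and WT2 were wild type (WT). APP3 and APP4 carried APPswe/PS1deltaE9, a pair of transgenes for the amyloid precursor protein with the Swedish mutation and for presenilin 1 lacking exon 9, and are called AD mice since the line is a model of Alzheimer's disease. Per the paper's methods the mice formed 2 family pairs, each with mice of the same parents, namely APP4 and WT1 (group 1) and APP3 and WT2 (group 2). All mice had pentobarbital before dissection, and the promoter that drove the transgenes was not given in the sources used here. The miRNA counts hold no measure of the transgenes themselves, so the genotype labels could not be checked against them. The question of the design was which miRNAs differ between AD and WT cortex.

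Both families are best known from neurons. miR-124 is among the miRNAs most typical of neurons and represses many genes of other cell types, among them the splicing regulator Ptbp1. miR-9 is made in neural progenitors and in neurons, and its arms act on partners in one repressor complex of neuronal genes, with miR-9-5p targeting REST and miR-9-3p targeting CoREST. Each family is encoded by several hairpins at different loci that give the same mature strands.

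The sequences of the miR-9 strands are shown because their seeds, bases 2 to 8 from the 5′ end that pair with a target, differ although both strands come from 1 hairpin. RefSeq mature entries (GRCm38.p6) matched 754 of the 942 miRNAs by name, and of the 4 described here they matched the 2 arms of miR-9. In the lines that follow the seed stands in capitals.
miR-9-5p: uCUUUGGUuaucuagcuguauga
miR-9-3p: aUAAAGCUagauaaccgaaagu
miR-9-5p is 23 bases long with a GC content of 34.8%, and miR-9-3p is 22 bases long with a GC content of 31.8%. The site that pairs with the miR-9-5p seed reads ACCAAAG in a target, and that of miR-9-3p reads AGCTTTA. Of 1738 RefSeq mature entries none but those of miR-9 had either seed, so each arm stood alone in its seed group in this set. The closest of 753 other mature miRNAs of the table differed by 6 single-base edits, miR-218-5p from miR-9-5p and miR-101a-3p, miR-101c and miR-3964 from miR-9-3p. Bases of the longer strand that overhung the ends of the shorter one were not counted. Per the paper's methods up to 2 mismatches and 2 changed bases at each end were allowed in matching. The methods also state that no mismatch was allowed for miRBase, whereas the paper's supplement counts miRBase reads with 1 and 2 mismatches.

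Both arms are encoded by 3 hairpins, which are shown so that the identical arms and the unlike loops can be compared. Sequences are those of RefSeq on build GRCm38.p6, plus strand, with both mature arms in capitals.
Mir9-1, chr3:88215598-88215686: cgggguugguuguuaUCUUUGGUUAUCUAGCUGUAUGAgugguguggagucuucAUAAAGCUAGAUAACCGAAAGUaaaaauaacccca
Mir9-2, chr13:83738814-83738885: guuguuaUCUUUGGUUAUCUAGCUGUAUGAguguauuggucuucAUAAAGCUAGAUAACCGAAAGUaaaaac
Mir9-3, chr7:79505264-79505353: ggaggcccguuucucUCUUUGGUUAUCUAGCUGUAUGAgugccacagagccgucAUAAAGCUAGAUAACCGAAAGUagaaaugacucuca
The hairpins are 89, 72 and 90 bases long, and the loops between the arms are 16, 14 and 16 bases long. The loop of Mir9-1 differed from that of Mir9-2 by 4 edits and from that of Mir9-3 by 7, and the loops of Mir9-2 and Mir9-3 differed by 7. RNAfold gave minimum free energies of -41 kcal/mol for Mir9-1, -28.2 for Mir9-2 and -41.7 for Mir9-3, and in each folded structure 19 bases of miR-9-5p paired with miR-9-3p. In the GENCODE annotation Mir9-1 lies in introns of the long noncoding RNA gene Gm3764, with the annotated miRNA gene Gm25641 on the opposite strand. Mir9-3 lies in introns of its host gene Mir9-3hg. Mir9-2 lies in the long noncoding RNA gene C130071C03Rik, inside an exon of 2 of the 3 transcripts that span it. The mature strands are the same whichever hairpin gave them, and the deposited table lists 3 precursors for each of miR-9 and miR-124. The counts therefore give each family as a sum over its loci and cannot be split between them.

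The 4 libraries held between 19048747 and 26085776 miRNA reads, and 833 to 855 of the 942 miRNAs had a read. Levels are given as RPM, a miRNA's reads per 1000000 miRNA reads of its library, on which 3 reads correspond to 0.115 to 0.157 RPM. Each mouse is 1 library, so n is 2 per genotype, and intervals for a single library cover counting error only. Every pair of libraries differed by far more than sampling noise, as chi-square over its degrees of freedom was 574 to 1221 over the miRNAs. APP4 stood apart in the summed level of 11 miRNAs typical of epithelium, with 6198 RPM there and 852 to 1335 RPM in the other libraries. Most of the sum in APP4 was miR-182-5p, at 3833 RPM. The other 10 gave 2365 RPM in APP4 and 446 to 535 RPM in the other libraries. Of the 11, 10 were highest in APP4 and 1, miR-375-3p, in APP3.

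miR-9-5p was the most abundant of the 4 mature miRNAs in every library. WT1 had 36670.4 RPM and WT2 29300.0, while APP3 had 29939.8 and APP4 34938, from 636728 to 956575 reads per library. Its rank by level among all miRNAs was between 4 and 7. On this scale both mice of group 1 were high and both mice of group 2 were low, so the genotypes overlapped. With TMM library sizes WT1 was still highest at 39863. APP4, at 31858, then lay nearer to WT2 at 29610 and APP3 at 29889 than to WT1, and the genotypes overlapped there too. The mean was 32985 ± 5212 RPM in WT mice and 32439 ± 3535 RPM in AD mice (SD, n = 2).

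miR-124-3p, the main strand of its family, was second. WT1 had 7183 RPM and WT2 10834, while APP3 had 8556 and APP4 8369, from 159414 to 239198 reads. On this scale the WT mice held both the lowest and the highest value, and both AD mice lay between them. With TMM library sizes WT2 was still highest at 10949, but APP4 was lowest at 7631, below WT1 at 7808. The mean was 9008 ± 2582 RPM in WT mice and 8463 ± 133 RPM in AD mice (SD, n = 2).

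miR-9-3p, the minor arm of miR-9, stood at 712 RPM for WT1 and 875 for WT2, and at 833 for APP3 and 917 for APP4, from 17477 to 19317 reads. WT1 was low beside the other 3 mice, and WT2 lay between the AD mice. With TMM library sizes WT1 was also lowest, at 774, but WT2 was highest, at 884, with APP3 at 832 and APP4 at 837. The means were 794 ± 115 RPM in WT mice and 875 ± 59.8 RPM in AD mice (SD, n = 2).

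miR-124-5p, the minor arm of miR-124, was the rarest of the 4, with 969 to 1172 reads. The WT mice had 44.9 RPM (WT1, 95% Wilson interval 42.4 to 47.6) and 43.9 RPM (WT2, 41.2 to 46.7). The AD mice had 48.0 RPM (APP3, 45.2 to 51.0) and 54.9 RPM (APP4, 51.6 to 58.3). It was the only one of the 4 with both AD mice above both WT mice, though the interval of APP3 overlapped those of both WT mice. Among 623 miRNAs with enough reads to be tested, both AD mice were above both WT mice for 168, or 27.0%, so this order was common on the RPM scale. The reverse order held for 8.99%. With TMM library sizes both AD mice were above for 14.9% of the 623 and below for 19.1%. With TMM library sizes the values of miR-124-5p were 48.8 and 44.4 for WT1 and WT2 and 47.9 and 50.0 for APP3 and APP4, and the genotypes overlapped. The means on the RPM scale were 44.4 ± 0.736 RPM in WT mice and 51.4 ± 4.84 RPM in AD mice (SD, n = 2).

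**Figure D1:**
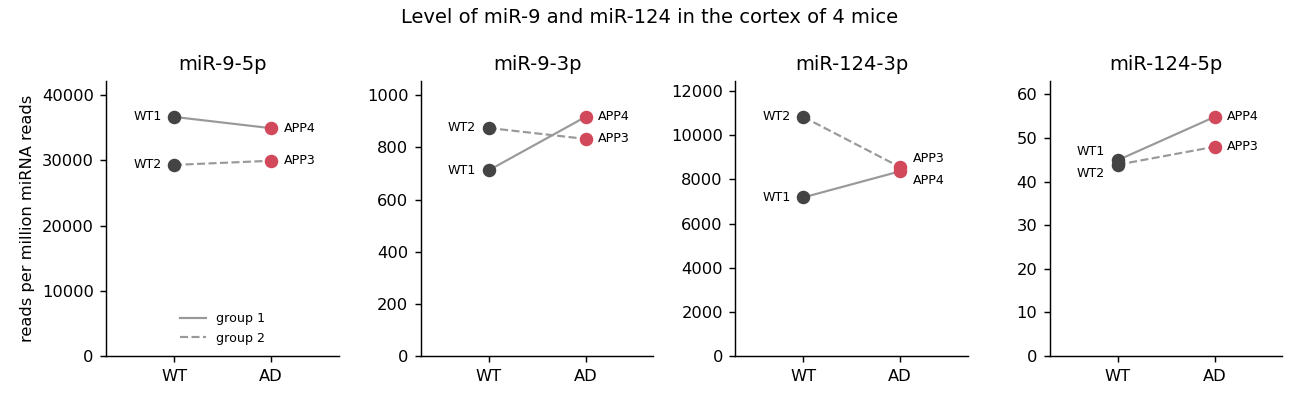
Level of each of the 4 miRNAs (vertical axis, RPM, starting at 0, a separate scale in each panel) in the WT and AD mice (horizontal axis). Each point is 1 mouse and lines join the mice of a family pair. The genotypes overlap for miR-9-5p, miR-9-3p and miR-124-3p, and the AD mice, at 48.0 and 54.9 RPM, lie above the WT mice for miR-124-5p.

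The order of the 4 levels was the same in all libraries, miR-9-5p over miR-124-3p over miR-9-3p over miR-124-5p, and no neighbours in this order overlapped. The lowest miR-9-5p value, 29300.0 RPM, was above the highest miR-124-3p value, 10834 RPM, and the highest miR-9-3p value was 917 RPM. These are levels of reads after PCR, with no molecule tags and no correction for length. Adapter ligation and PCR favour some miRNAs over others, so the order of reads need not be the order of molecules.

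The spread over the 4 mice was ordinary for cortex miRNAs of these libraries. The highest library was 1.25 times the lowest for miR-9-5p, 1.29 times for miR-9-3p and 1.25 times for miR-124-5p. It was 1.51 times the lowest for miR-124-3p. Over 252 miRNAs that averaged 50 RPM or more, called abundant here, the median of this ratio was 1.37, and it was smaller than that of miR-124-3p in 73.0% of them.

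Summed over arms, miR-9 made up 3.74% (WT1) and 3.02% (WT2) of the miRNA reads of the WT mice and 3.08% (APP3) and 3.59% (APP4) of those of the AD mice. miR-124 made up 0.723%, 1.09%, 0.860% and 0.842% in the same order. As a share of miRNA reads, miR-124 was thus lowest in WT1, where miR-9 was highest, and highest in WT2, where miR-9 was lowest. Both families together took 3.94% to 4.46% of the miRNA reads.

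Within each family pair the AD mouse was compared with the WT mouse with Fisher's exact test (two-sided) of a miRNA's reads against all other miRNA reads. A miRNA was called at a Benjamini-Hochberg false discovery rate (FDR) under 0.05 and at least 1.5-fold, the limits given in the study's methods. These limits gave more calls here, 104 in group 1 and 61 in group 2, than the paper lists. With counts scaled to 1000000 per library the numbers were 32 and 23, close to the paper's. The cause of the gap was not tested. The p of Fisher's test speaks of 2 libraries and not of the genotypes. Log2 differences are those of RPM with 0.5 read added, with the standard error (SE) from counting.

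In group 1 none of the 4 miRNAs was called, where 11.6% of 899 miRNAs were. All 4 had an FDR under 0.05, as did 40.3% of the 899 miRNAs and 88.1% of the 252 abundant ones. From WT1 to APP4, miR-9-5p differed by -0.070 on the log2 scale (SE 0.0023) and miR-9-3p by 0.37 (SE 0.015). miR-124-3p differed by 0.22 (SE 0.0049) and miR-124-5p by 0.29 (SE 0.061, FDR 1.14e-05 by Fisher's exact test). The main arm of miR-9 was thus slightly lower in the AD mouse and the other 3 strands were 1.17 to 1.29 times as high, of which miR-124-3p was not higher with TMM library sizes. The median log2 difference of all 4 strands was 0.25, and that of the abundant miRNAs was 0.14.

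In group 2 again none was called, where 6.81% of 896 miRNAs were. The FDR was under 0.05 for 3 of the 4, with a share of 36.0% over all miRNAs tested and 86.1% over the abundant ones. From WT2 to APP3, miR-9-5p differed by 0.031 on the log2 scale (SE 0.0025), miR-9-3p by -0.071 (SE 0.015) and miR-124-3p by -0.34 (SE 0.0045). The last was the largest of the 4 differences in this pair, and 74.2% of the abundant miRNAs differed by less. miR-124-5p differed by 0.13 (SE 0.065), with an FDR of 0.117 by Fisher's exact test.

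The pairs did not repeat each other for the 3 abundant strands. miR-9-5p, miR-9-3p and miR-124-3p each differed one way in group 1 and the other way in group 2, as did 115 of the 252 abundant miRNAs, or 45.6%. Whether the pairs differ from each other was not tested. For miR-124-3p the opposite direction depended on the scaling, as TMM library sizes gave -0.033 in group 1 and -0.36 in group 2. TMM moved every log2 difference of group 1 by -0.25 and those of group 2 by -0.02. Under TMM the group 1 differences of the other strands were -0.32 for miR-9-5p, 0.11 for miR-9-3p and 0.035 for miR-124-5p. In group 2 TMM gave 0.014 for miR-9-5p.

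**Figure D2:**
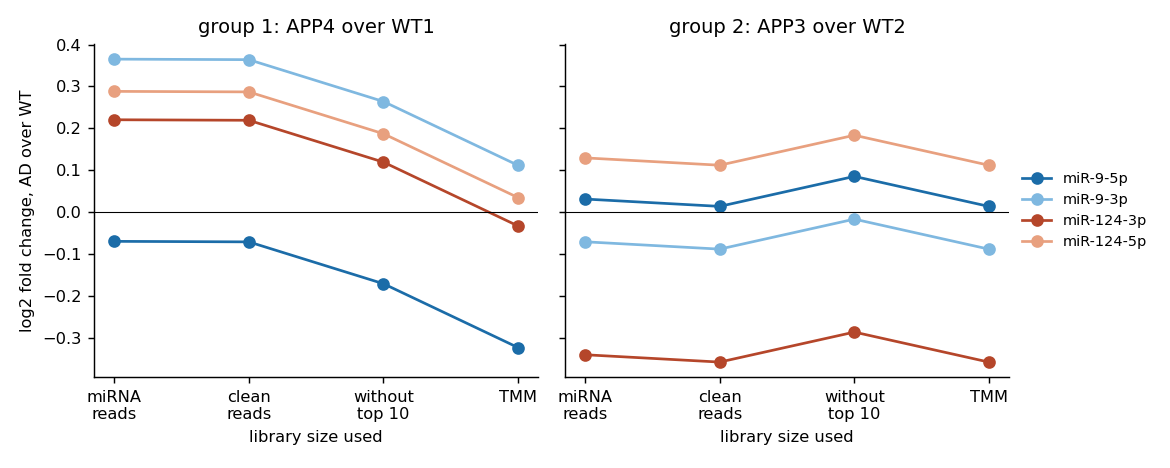
Log2 difference (vertical axis) of each miRNA between the mice of group 1 and of group 2 when libraries are scaled by miRNA reads, by TMM, by clean reads or by the miRNA reads without the 10 most-read miRNAs (horizontal axis). In group 1 miR-124-3p is at 0.22 with miRNA reads and at -0.033 with TMM, and in group 2 it lies below 0 at every scaling.

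Mice of the same genotype gave a measure of the difference between individuals. They came from different family pairs, so individual, family and library differences cannot be told apart in it. miRNA reads made up 83.4% of clean reads in WT1 and APP4 of group 1, and 88.7% in WT2 and 87.6% in APP3 of group 2. Between the WT mice 10.1% of 879 miRNAs were called, and 1 of the 4 strands was among them. miR-124-3p was 1.51-fold higher in WT2 than in WT1, a log2 difference of 0.59 (SE 0.0045), larger than in 91.7% of the abundant miRNAs. The call lay close to the limit of 1.5-fold. It was lost with TMM library sizes, at 0.49, and without the 10 most-read miRNAs, at 0.52, though the difference stayed larger than any between genotypes in either family pair.

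The other strands differed less between the WT mice. miR-9-5p was lower in WT2 than in WT1 by -0.32 on the log2 scale and miR-9-3p was higher by 0.30. For miR-124-5p the difference was -0.034, with an FDR of 0.769 by Fisher's exact test. TMM library sizes gave -0.43, 0.19 and -0.14 for these strands in the same order. The FDR was under 0.05 for 3 of the 4 strands, with 40.5% of all miRNAs tested and 90.1% of the abundant ones.

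Between the AD mice 8.05% of 907 miRNAs were called and none of the 4 strands. From APP3 to APP4 the log2 differences were 0.22 for miR-9-5p, 0.14 for miR-9-3p, -0.032 for miR-124-3p and 0.19 for miR-124-5p (FDR 0.00817 by Fisher's exact test for the last). All 4 had an FDR under 0.05, beside 35.2% of all miRNAs tested and 86.9% of the abundant ones. These sizes depended on the scaling. With TMM library sizes they were 0.092 for miR-9-5p, 0.0087 for miR-9-3p, -0.16 for miR-124-3p and 0.062 for miR-124-5p, so the order of the strands by size changed too.

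**Figure D3:**
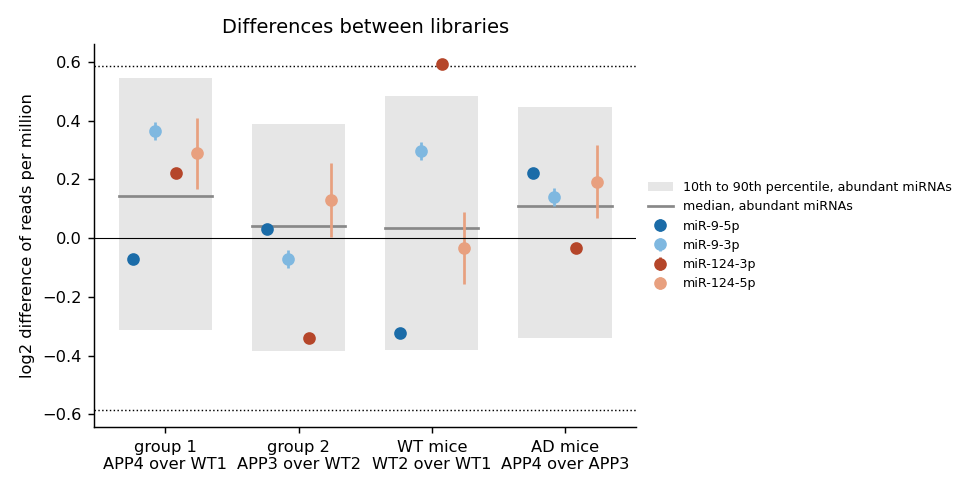
Log2 difference between libraries (axis in log2 units) of the 4 miRNAs in the 2 family pairs and between mice of one genotype. Vertical lines are 95% counting intervals, grey boxes and lines are the 10th to 90th percentile and the median of the 252 abundant miRNAs, and dotted lines mark 1.5-fold. The largest difference is that of miR-124-3p between the WT mice, at 0.59, and those between genotypes run from -0.34 to 0.37.

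Over the 4 mice the genotypes were compared with edgeR's quasi-likelihood test, in which the mouse is the replicate. All 4 strands passed its filter on low counts, and 0 of 623 miRNAs, or 0.0%, were called at a Benjamini-Hochberg adjusted p under 0.05, with 36 at an unadjusted p under 0.05. DESeq2 called 0 of 942, with 28 at an unadjusted p under 0.05. With the family pair as a block edgeR called 2 of 623, or 0.321%, and none of the 4.

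The edgeR log2 fold change from WT to AD was -0.17 for miR-9-5p (SE 0.22, 95% interval -0.69 to 0.35, adjusted p = 0.958). For miR-124-3p it was -0.21 (SE 0.22, 95% interval -0.73 to 0.31, adjusted p = 0.958 in edgeR). Without WT2 the latter was 0.086, and without WT1 it was -0.45. The minor arms were at 0.0084 for miR-9-3p (SE 0.18, 95% interval -0.42 to 0.43, edgeR adjusted p = 0.9999) and at 0.072 for miR-124-5p (SE 0.21, 95% interval -0.42 to 0.56, edgeR adjusted p = 0.986). Without TMM the edgeR values were -0.024 for miR-9-5p, -0.090 for miR-124-3p, 0.14 for miR-9-3p and 0.21 for miR-124-5p, so which arms lay nearer 0 depended on the scaling. Without WT1 miR-9-5p was at 0.052 and miR-9-3p at -0.093, and miR-9-3p was also below 0 without APP4, at -0.0078. No difference between genotypes was detectable for any of the 4 with 2 mice each, and the intervals leave room for changes of up to 0.73 on the log2 scale. The median absolute log2 fold change of the 623 miRNAs was 0.19, and 57.0% of them had a smaller one than miR-124-3p.

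The ratio of the arms of a hairpin does not depend on how libraries are scaled. For each read of miR-9-3p there were 51.5 (WT1) and 33.5 (WT2) reads of miR-9-5p in the WT mice and 35.9 (APP3) and 38.1 (APP4) in the AD mice. WT1 stood above the other mice, which lay close together. The mean log2 ratio was 5.38 ± 0.44 in WT mice and 5.21 ± 0.059 in AD mice (SD, n = 2), a difference of -0.17 with p = 1 in a two-sided exact permutation test. With 2 mice against 2 this test cannot give a p below 0.333.

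For each read of miR-124-5p there were 160 (WT1) and 247 (WT2) reads of miR-124-3p in the WT mice, and 178 (APP3) and 152 (APP4) in the AD mice. Here WT2 was high and WT1 lay between the AD mice. The mean log2 ratio was 7.63 ± 0.44 in WT mice and 7.36 ± 0.16 in AD mice (SD, n = 2), a difference of -0.27 with p = 0.667 in the exact permutation test. Within group 1 the log2 ratio differed by -0.068 from WT to AD and within group 2 by -0.47. For miR-9 these differences were -0.43 and 0.10.

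In each family the arm ratio was highest in a WT mouse, and the AD mice lay nearer each other than the WT mice did. As a share of both arms, miR-9-3p was 1.91% in WT1 (95% Wilson interval 1.88% to 1.93%) and 2.56% to 2.90% in the other mice. miR-124-5p was 0.403% in WT2 (0.379% to 0.430%) and 0.558% to 0.651% in the others. The gap of the mouse with the highest ratio was therefore beyond counting error for both. Among 95 hairpins with both arms well read, miR-9 was more uneven than 70 and miR-124 than 83. Well read means a mean of 50 RPM or more for the summed arms and 10 RPM or more for the minor arm. That limit leaves out hairpins with a rarer minor arm, such as miR-143, whose mean log2 ratio was 14.2 in size, beside 7.5 for miR-124. These ranks thus hold among the 95 only. The highest and lowest log2 arm ratio lay 0.62 apart for miR-9 and 0.69 apart for miR-124, beside a median of 0.61 for the 95.

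**Figure D4:**
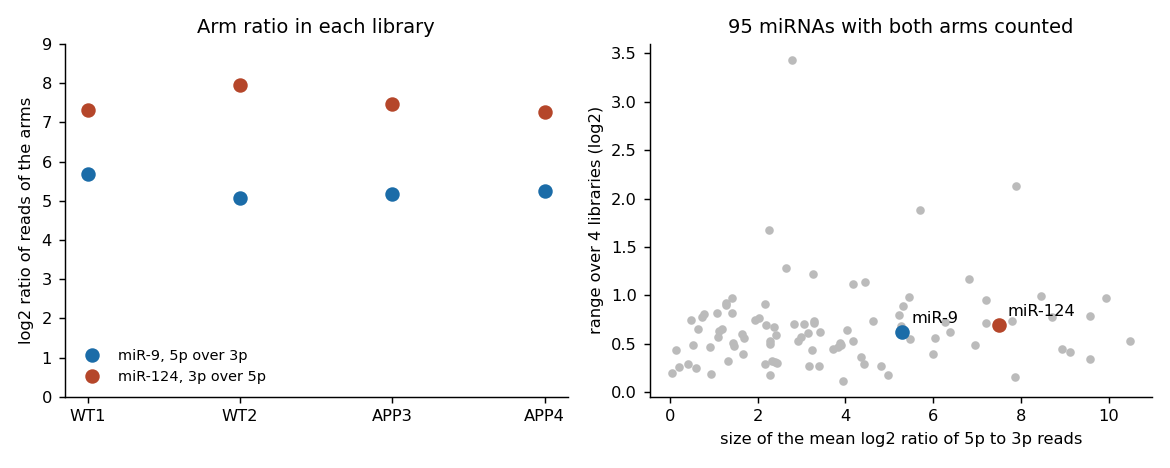
Log2 ratio of the major over the minor arm (vertical axis) of miR-9 (5p over 3p) and miR-124 (3p over 5p) in each mouse, WT and AD. WT1 at 5.69 is highest for miR-9, WT2 at 7.95 is highest for miR-124, and the genotypes overlap in both.

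The ratio of summed miR-9 to summed miR-124 reads was 5.17 (WT1) and 2.77 (WT2) in the WT mice and 3.58 (APP3) and 4.26 (APP4) in the AD mice. The WT mice were the extremes on both sides. The log2 ratio differed between genotypes by 0.043 (p = 1, two-sided exact permutation test), by -0.28 within group 1 and by 0.37 within group 2. Its mean was 1.92 ± 0.64 in WT mice and 1.96 ± 0.18 in AD mice (SD, n = 2). Without 1 mouse the genotype difference ran from -0.41, without WT2, to 0.49, without WT1.

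The patterns of the strands over the 4 libraries were compared by the root mean square (RMS) of the difference of their log2 levels, each centred on its own mean. The 2 arms of miR-9 were 0.24 apart, and those of miR-124 were 0.27 apart. Of the 95 hairpins, 46 had arms closer in pattern than miR-9 and 60 had arms closer than miR-124. The median distance was 0.24 between arms of one hairpin and 0.23 between arms of different hairpins, so sharing a hairpin went with no greater likeness over these 4 libraries. miR-9-3p was closer to both miR-124 strands, at 0.16 for miR-124-3p and 0.12 for miR-124-5p, than to miR-9-5p. The farthest pair of the 4 was miR-9-5p and miR-124-3p, at 0.34.

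Among 249 other abundant miRNAs the 3 closest to miR-9-5p were miR-21a-5p (RMS 0.023), miR-101a-3p (0.024) and miR-181b-5p (0.027), where the median distance was 0.22. miR-21a-5p had 2027 RPM (WT1), 1609.9 (WT2), 1716 (APP3) and 1952 (APP4), so on the RPM scale it too was high in both mice of group 1. Closest to miR-9-3p were miR-30b-5p (0.013), miR-30c-5p (0.021) and miR-582-5p (0.026), with a median of 0.19. miR-30b-5p gave 879, 1056, 1005 and 1116 RPM in the same order, the order of miR-9-3p.

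miR-124-3p had no neighbour as close. Its nearest were miR-151-5p (0.049), miR-384-3p (0.064) and the neuron-enriched miR-153-3p (0.079), with a median of 0.28. miR-153-3p had 641 RPM (WT1), 958 (WT2), 869 (APP3) and 775 (APP4), with WT1 lowest and WT2 highest as for miR-124-3p. Closest to miR-124-5p were miR-93-5p (0.029), miR-341-3p (0.040) and miR-300-3p (0.043), with a median of 0.17. With 4 libraries these likenesses are descriptions. All points share the scaling of their library, which shifts every miRNA alike. The courses of the levels thus depend on the scaling, whereas it nearly cancels in the distances between miRNAs.

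**Figure D5:**
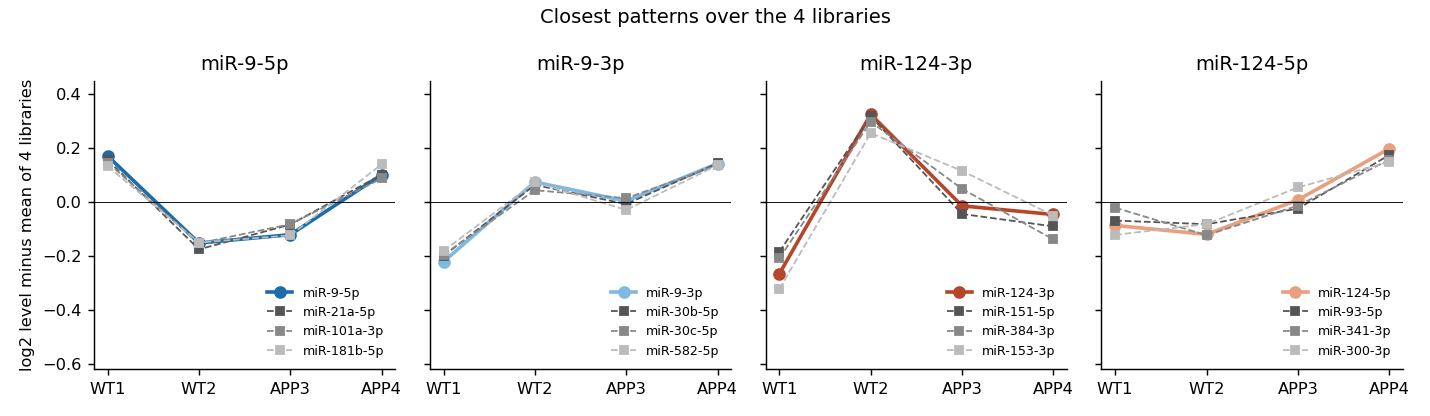
Log2 level relative to the mean over the 4 libraries (vertical axis) in WT1, WT2, APP3 and APP4 (horizontal axis) for each of the 4 miRNAs and the 3 abundant miRNAs closest to it. On the RPM scale miR-9-5p is high in WT1 and APP4, miR-124-3p is high in WT2, and the arms of each family follow different courses.

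Whole cortex was sequenced, so fewer cells of a type and less RNA per cell cannot be told apart. Of 12 other neuron-enriched miRNAs all had reads in all 4 libraries, and their summed level was 40371 and 50207 RPM in the WT mice WT1 and WT2, and 45729 and 49173 RPM in APP3 and APP4. Most of this sum was miR-128-3p, and without it the other 11 gave 12306 and 13228 RPM in WT1 and WT2 and 15481 and 15384 RPM in APP3 and APP4. WT1 was lowest in both sums, whereas WT2 was highest only with miR-128-3p included. Of the 12, 6 were lowest in WT1, as were 32.5% of the abundant miRNAs, and 4 were highest in WT2. The part of this list in the WT difference of miR-124-3p was not tested. Of the 12, 3 were called in group 1, 3 in group 2, 1 between mice of WT genotype and 2 between the AD mice. The calls in the family pairs were miR-138-5p, higher in both AD mice, and miR-7a-5p and miR-7b-5p, lower in both. The study had itself picked these miRNAs from these libraries, so the calls here are no independent evidence. It also measured them by quantitative PCR in more mice of this age, these 4 included. It reported a consistent change for miR-7a-5p and miR-7b-5p and named miR-138-5p as the exception. Its supplement nevertheless lists miR-138-5p as higher in AD mice by both sequencing and quantitative PCR. Of the 12, 0 were called by edgeR over the 4 mice.

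Markers of other cell types were read in all libraries too. The 4 oligodendrocyte miRNAs gave 1904 to 2275 RPM, with 1 call in all 4 comparisons, between the AD mice. The 5 miRNAs of microglia and immune cells gave 1125 to 1313 RPM, with 2 calls in group 1 and 1 in group 2, all higher in the AD mouse. Most of the immune sum was miR-146a-5p, in which the genotypes overlapped. Without it the other 4 gave 65.0 and 85.3 RPM in WT1 and WT2 and 102 and 105 RPM in APP3 and APP4. Most of this was miR-142-5p, at 54.7, 74.3, 88.4 and 90.9 RPM in the same order. The study had listed miR-142-5p for group 1 from these libraries. Both AD mice were above both WT mice in this sum, an order that 27.0% of the 623 tested miRNAs had on the RPM scale. With TMM library sizes 14.9% of the 623 had this order.

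The vascular, blood and epithelial lists varied more between libraries. The 4 vascular miRNAs gave 24404 RPM in APP4 and 30007 to 32445 RPM in the others, with no call. Most of this sum was miR-143-3p, and without it the other 3 gave 7486 and 8117 RPM in WT1 and WT2 and 9247 and 7776 RPM in APP3 and APP4, where APP4 did not stand apart. The 3 blood miRNAs gave 3206 to 4626 RPM, and 2 of them, miR-144-3p and the red cell miRNA miR-451a, were called higher in WT2 than in WT1, as miR-124-3p was, and higher in APP4 than in WT1. The third, miR-486-5p, made up most of the sum and was not called, with 3899.5 RPM in WT1 and 4417 in WT2 against 3881 in APP3 and 3053 in APP4. miR-451a gave 91.4 RPM in WT1 and 200 RPM in WT2.

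Of the 11 epithelial miRNAs 8 were called higher in APP4 than in WT1 and 8 higher in APP4 than in APP3. In group 2, 4 of the 11 were called lower in the AD mouse, and 4 were called between the WT mice. The 4 miRNAs of muscle and liver gave 99.7 to 125 RPM, with 1 call in each of group 1, group 2 and the WT mice. No listed marker was at 0 in any library. What part the blood and epithelial levels had in the differences of miR-9 and miR-124 was not tested.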

How the data were processed

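Small RNA of the cortex of 4 mice was sequenced by the authors. The labels name Trizol for RNA and the paper a column kit. Reads of 18 to 35 nt were matched to miRBase by the authors, and the counts, mature and variant reads together, were deposited without normalization. The paper's methods give at most 2 mismatches in matching but also none for miRBase. The deposited RPM per clean read (named TPM) gave the number of clean reads only, between 22851004 and 31265701. Per the submitters' processing notes CASAVA 1.8 and mm9 were used, and the paper names GRCm38. All coordinates are those of RefSeq (GRCm38.p6).

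Counts were scaled to the miRNA reads. Fisher's exact tests (scipy 1.17.1) compared libraries, and edgeR 4.0.16 (R 4.3.3, filterByExpr, TMM) the genotypes, with Benjamini-Hochberg adjustment. DESeq2 1.42.0, other scalings, filters and limits, and leaving out each mouse were the alternatives. Hairpins were folded with RNAfold 2.7.2. Scripts were tested on simulated data. Named miRNAs are the 4 strands, the 3 closest abundant miRNAs of each, and list members that a result turned on. The 4 miRNAs and the marker lists were chosen with earlier results of these data known.

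The family pairs are stated in the paper. Within a pair the deviations from the genotype means correlated with r = 0.237 over 252 abundant miRNAs, which are not independent replicates. Separate animals were sequenced once each, so p-values over mice include animal and library differences.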

Additional observations from a re-analysis of the deposited data

Results flagged for a closer look

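In 5 results the AD mouse was on one side of its WT relative in group 1 and on the other side in group 2. Whether the 2 groups differ was not tested, since each holds 1 mouse per genotype, and 45.6% of the 252 abundant miRNAs had such opposite signs. On the log2 scale miR-9-5p differed by -0.070 in group 1 and 0.031 in group 2, miR-9-3p by 0.37 and -0.071, and miR-124-3p by 0.22 and -0.34. The log2 arm ratio of miR-9 differed by -0.43 and 0.10. The log2 ratio of miR-9 to miR-124 differed by -0.28 and 0.37. The ratios do not depend on scaling, whereas with TMM library sizes miR-124-3p was at -0.033 in group 1 and no longer opposite.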

How the results depend on the processing

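The numbers of calls in group 1, group 2, the WT mice and the AD mice were 104, 61, 89 and 73. With counts scaled to 1000000 per library they were 32, 23, 21 and 23, with at least 10 RPM 53, 30, 40 and 40, with Bonferroni correction 65, 34, 51 and 47, and at 2-fold 50, 23, 38 and 38. TMM kept the numbers within 1.5 times but moved the split of higher and lower calls, from 87 and 17 to 39 and 46 in group 1, from 67 and 22 to 40 and 37 in the WT mice and from 46 and 27 to 29 and 42 in the AD mice.

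Among the 4 strands, miR-124-3p in group 1 turned from 0.22 to -0.033 with TMM. Between the WT mice its log2 difference of 0.59 lost its call with TMM (0.49) and without the 10 most-read miRNAs (0.52), and miR-124-5p turned from -0.034 to 0.054 with clean reads. The alternatives for mice of one genotype were chosen after seeing the data. edgeR called 0 miRNAs over the genotypes, 2 with the family pair as a replicate block, and 0 to 21 when a mouse was left out, 3 without WT1, 21 without APP3 and 5 without APP4. The block changed no other call, and no alternative called any of the 4 strands between genotypes. Leaving out a mouse moved the edgeR log2 fold change from -0.33 to 0.052 for miR-9-5p (above 0 without WT1), from -0.093 to 0.14 for miR-9-3p (below 0 without WT1 or APP4), from -0.45 to 0.086 for miR-124-3p (above 0 without WT2) and from 0.028 to 0.13 for miR-124-5p. The genotype differences of the arm ratios ran from -0.48 to 0.14 for miR-9 and from -0.58 to 0.044 for miR-124. The lone mouse of a genotype is then assumed to vary like the others.

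As a share of clean reads, miR-9 was 3.12% in WT1, 2.70% in APP3 and 2.99% in APP4, miR-124 was 0.754% in APP3 and 0.702% in APP4, and both together were 3.72%, 3.64%, 3.45% and 3.69% in WT1, WT2, APP3 and APP4. These shares differ from those of miRNA reads only in the number of reads divided by. Causes of the other changes given in this section were not tested. Depth did not limit the main arms, while 969 to 1172 reads of miR-124-5p gave a counting SE of 0.061 to 0.065 on the log2 scale. The number of mice limits every comparison of genotypes.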
